A study of Homo sapiens with 15 samples.

Results

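The comparison described here set nuclei of K562 cells digested with 0.1 U of nuclease P1 against nuclei that received no P1, in 6 of the 15 samples of a titration. The members were chosen by their titles, with 3 biological replicates labelled P0.1 and 3 labelled P0. K562 is an established human cell line from chronic myelogenous leukemia. All nuclei were crosslinked with formaldehyde. For the digestion, nuclei were treated with SDS and then with Triton, and incubated with P1 in NEBuffer 1.1 for 10 min at 37 °C. The enzyme was then inactivated by heat. The treated nuclei received 0.1 U of P1, and the untreated nuclei received none. The paper does not say whether the untreated nuclei went through the other steps of the digestion. The libraries were made by SSiNGLe-P1, in which free 3′-OH ends of DNA are tailed and sequenced, so each read gives the position and strand of 1 terminus. Untreated nuclei therefore show the termini that were present without the enzyme. The mitochondria were those that came along with the nuclei and with unbroken cells, so their amount was not set by the protocol. The comparison asks on which strand, and in which genes, termini were more frequent after a limited digestion.

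P1 cuts single-stranded nucleic acid much more readily than duplex DNA and leaves a 3′-OH end. In mitochondrial DNA, the heavy (H) strand and the light (L) strand are copied at different times under the strand-displacement model, and the parental H strand is held single-stranded until L-strand synthesis begins. The main non-coding region (NCR) between MT-TP and MT-TF holds the D-loop, the H-strand origin and the promoters, and the L-strand origin lies in a cluster of tRNA genes between MT-TN and MT-TC. Nuclear DNA can be single-stranded at replication origins, in R-loops and near the starts of transcribed genes.

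In the mitochondrial genome, the ratio of H-strand to L-strand termini was higher after 0.1 U of P1 in 36 of 39 annotated units (92.3%), which were 37 genes and the parts of the NCR on either side of them. tRNA genes held both the largest and the smallest rises among the called units, and their sequences are shown to identify them. MT-TT and MT-TA had the largest log2 rises of the ratio. MT-TF and MT-TS1 were among the tRNA genes with the smallest rises, with GC contents of 40.8% and 49.3% against 37.9% and 43.5% in MT-TT and MT-TA. The GC content of the other tRNA genes was not examined, so no relation to the rise is drawn. The letters are those of the transcript, 5′ to 3′, which match the L strand for MT-TT and MT-TF and the H strand for MT-TA and MT-TS1, and no letter is in capitals because no base is singled out.
MT-TT: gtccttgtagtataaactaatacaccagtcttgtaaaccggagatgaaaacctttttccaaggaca
MT-TA: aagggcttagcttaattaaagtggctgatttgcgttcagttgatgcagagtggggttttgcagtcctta
MT-TF: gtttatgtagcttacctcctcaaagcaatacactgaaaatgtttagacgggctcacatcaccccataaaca
MT-TS1: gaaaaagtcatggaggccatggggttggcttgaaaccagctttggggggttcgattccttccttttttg

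The untreated libraries held 112179, 468797 and 486276 mitochondrial termini in replicates 1 to 3, and the treated libraries held 382515, 551845 and 692989. Nuclear termini ranged from 2411930 to 4253274 per sample, and 91.1% to 92.4% of the nuclear sites carried a single terminus. Untreated replicate 1 stood apart. It had 26.4 mitochondrial termini per 1000 nuclear termini, whereas the other 5 libraries had 125 to 231. The line was checked by its DNA. CDKN2A, which is deleted in K562, had 0 sites in all 6 samples, and BCR and ABL1, which are amplified in K562, had 11.9 to 12.8 times and 8.31 to 9.11 times the mean density of the genome. P-values below refer to these samples only. In the edgeR fits the spread of a feature was moderated towards that of all features fitted. A small edgeR p can therefore rest on 1 outlying sample, as for BRAF below. Exact permutation tests over the 20 splits of 3 against 3 samples were two-sided and could not give a p below 0.1.

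Outside the NCR the H strand took a larger share of all mitochondrial termini after P1, and the L strand took a smaller one. The H-strand share was 16.3%, 15.04% and 14.7% in the untreated replicates and 22.6%, 18.9% and 23.5% in the treated replicates. All treated samples were above all untreated samples, by a factor of 1.41 (geometric mean of the ratios within replicate numbers; exact p = 0.1, the smallest possible). The L-strand share was 17.0%, 17.6% and 15.3% without P1 and 11.8%, 9.05% and 9.62% with P1, a factor of 0.608 (exact p = 0.1). Here all treated samples were below all untreated ones. The H strand of the NCR held most of the termini in both groups, with 65.4%, 66.3% and 69.1% in untreated samples and 64.7%, 71.4% and 66.1% in treated samples (exact p = 0.9), and these ranges overlapped. The L strand of the NCR held 1.28%, 1.03% and 0.943% without P1 and 0.869%, 0.682% and 0.774% with P1, a factor of 0.718 (exact p = 0.1), and all treated samples were below all untreated ones.

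These strand levels are shares of the mitochondrial termini, so a fall on one strand can accompany a rise on the other. Set against nuclear termini, the H strand outside the NCR had 4.29, 29.2 and 28.6 termini per 1000 nuclear termini in untreated samples and 28.2, 37.1 and 54.4 in treated samples. The L strand had 4.50, 34.2 and 29.7 without P1 and 14.8, 17.8 and 22.2 with P1. On this scale the groups overlapped on both strands, and untreated replicate 1 was the lowest on both. The ratios in the other 2 replicate numbers were 1.27 and 1.90 for the H strand and 0.521 and 0.748 for the L strand. The H/L ratio within a sample does not depend on the scale. At equal depth, with every sample thinned to 112179 mitochondrial termini, an H-strand terminus was found at 38.9%, 35.5% and 34.7% of the positions outside the NCR without P1 and at 45.5%, 40.5% and 43.8% with P1. The corresponding L-strand coverage was 39.2%, 37.9% and 34.8% without P1 and 30.99%, 27.1% and 27.5% with P1. Neither pair of groups overlapped (exact p = 0.1 each).

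The profile along the genome was measured in 100-bp bins with the total of mitochondrial termini as library size. On the H strand 102 of 166 bins were higher after P1, which is 61.4%, and 22 were lower, which is 13.3% (edgeR quasi-likelihood test, Benjamini-Hochberg adjusted p under 0.05). The median log2 change of the H-strand bins was 0.50, and the changes ran from −0.81 to 2.56. Of the L-strand bins 160 of 166 were lower (96.4%) and 0 were higher (0.0%), with a median log2 change of −0.75. The scale matters for these counts. With nuclear termini as library size no bin was called (0 of 332, with 17 at an unadjusted p under 0.05), and the median log2 change over the bins of both strands moved from −0.52 to 0.29. With nuclear termini and without replicate 1, in a setting chosen after seeing the data, 12 bins were called and all were higher. Over both strands the split of higher and lower bins was 102 and 182 (30.7% and 54.8%) with the total of mitochondrial termini, 137 and 159 with TMM, and 138 and 71 with DESeq2 size factors. In unique sites at equal depth 37 were higher and 24 lower.

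The H-strand profile changed in steps along the circle. All 22 lower bins lay between positions 701 and 3100, over the rRNA genes MT-RNR1 and MT-RNR2, and the next bin called after them, at 3201 to 3300, was higher with a log2 change of 0.57. The bin at 1001 to 1100 in MT-RNR1 fell the most, from 1355, 1169 and 1129 termini per 1000000 mitochondrial termini to 834, 622 and 641. From MT-TL1 onward the called bins were all higher. The bin at 5601 to 5700, in the tRNA cluster that holds the L-strand origin, went from 829, 826 and 753 termini per 1000000 to 2609, 1729 and 2336, a log2 change of 1.44 ± 0.19 (SE). The bin at 15901 to 16000, over MT-TT and MT-TP, went from 624, 371 and 360 to 1644, 1546 and 2104 termini per 1000000, a log2 change of 2.04 ± 0.20. Groups did not overlap in any of these 3 bins.

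The NCR held the largest H-strand bin changes of all. The bin at 101 to 200 rose from 713, 463 and 454 to 2387, 2551 and 4520 termini per 1000000 (log2 change 2.56 ± 0.20), and the bin at 16301 to 16400 rose from 998, 1391 and 1265 to 6120, 5016 and 7775 (2.35 ± 0.18; edgeR adjusted p = 5.89e-32 and 5.41e-31). The bin with the most termini in each sample, at 16101 to 16200 in the NCR, was not called. It held 638640, 645823 and 673681 termini per 1000000 without P1 and 605030, 676007 and 604197 with P1, a log2 change of −0.06 ± 0.09 (adjusted p = 0.54 in the same edgeR fit). The 6 L-strand bins without a call were 1 in MT-CO1, at 6601 to 6700, and 5 in the NCR or at its edge.

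**Figure D1:**
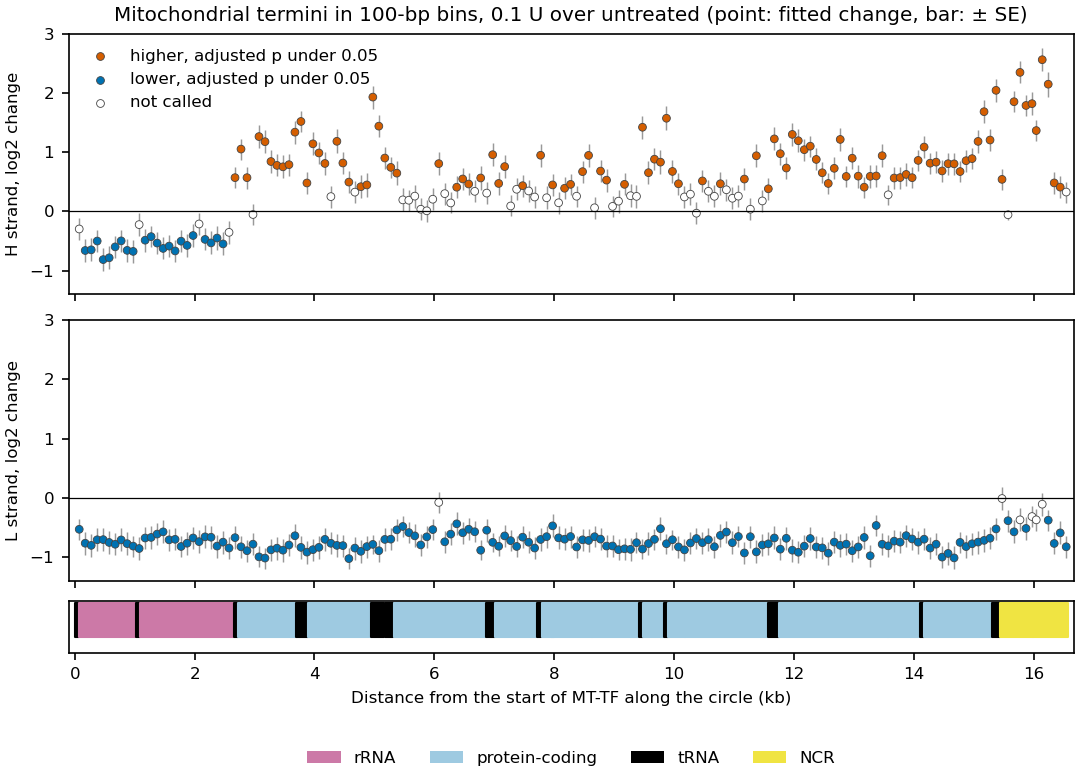
Log2 change of mitochondrial termini after 0.1 U of P1 in 100-bp bins of the H strand (top) and the L strand (middle), against the distance from the start of MT-TF in kb, with the gene classes along the bottom. Points are fitted changes, bars are ± 1 SE and filled points passed an adjusted p of 0.05; H-strand bins were lower over the rRNA genes and higher in 102 bins elsewhere, and L-strand bins were lower in 160 of 166.

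By gene, 32 of the 39 units were higher on the H strand (82.1%), 2 were lower (5.13%) and 5 were not called (edgeR, adjusted p under 0.05). On the L strand all 39 were lower (100.0%), with log2 changes between −0.39 and −1.04. The counts have the same dependence on scale as the bins: with nuclear termini as library size 0 of the 78 strand levels passed, and 9 had an unadjusted p under 0.05. With nuclear termini and without replicate 1, 12 passed and all were higher. The split of higher and lower levels was 32 and 41 (41.0% and 52.6%) here, 35 and 25 with DESeq2, and 30 and 18 in unique sites at equal depth. Over all 78 strand levels the median log2 change was −0.47 with the total of mitochondrial termini, −0.37 with TMM, −0.18 with DESeq2 size factors and 0.33 with nuclear termini. Levels are given below as termini per base per 1000000 mitochondrial termini.

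The rRNA genes, which encode the RNAs of the small and large mitochondrial ribosomal subunits, were lower on the H strand. MT-RNR1 had 10.6, 10.0 and 9.48 termini per base per 1000000 without P1 and 7.49, 5.99 and 5.92 with P1. MT-RNR2 had 9.0, 7.7 and 7.4 without P1 and 6.5, 5.1 and 5.4 with P1. Treated samples were below untreated samples in both genes, with log2 changes of −0.64 ± 0.16 (SE) and −0.51 ± 0.15 (edgeR adjusted p = 0.000114 and 0.00123). Their L-strand levels fell to a similar extent, by 0.74 and 0.70 on the log2 scale. With nuclear termini as library size the H-strand changes were 0.16 and 0.30, and with replicate 1 left out on that scale they were −0.58 and −0.39, none of them called, so the turn in sign rested on replicate 1. On the mitochondrial scale without replicate 1 the fall in MT-RNR2 had the same size, −0.53, and was not called (edgeR adjusted p = 0.0928).

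Of the 13 protein-coding genes, 12 were higher on the H strand, with a median log2 change of 0.48 over all 13. MT-CYB, which encodes cytochrome b of complex III, rose the most, from 12.5, 11.9 and 11.2 to 22.4, 19.0 and 24.7 termini per base per 1000000, a log2 change of 0.89 ± 0.14 (edgeR adjusted p = 2.51e-08). The complex I subunit genes spanned a range. MT-ND3 rose by 0.85, MT-ND1 by 0.82, MT-ND5 by 0.67, MT-ND2 by 0.64, MT-ND6 by 0.63, MT-ND4L by 0.48 and MT-ND4 by 0.30 on the log2 scale. Among the genes of ATP synthase, MT-ATP8 rose by 0.47 and MT-ATP6 by 0.44. The cytochrome c oxidase genes were at the low end, with 0.37 for MT-CO2 and 0.29 for MT-CO1 (edgeR adjusted p = 0.0422). MT-CO3 had a log2 change of 0.29 ± 0.15 and was not called (adjusted p = 0.0654 in the same edgeR fit), although its treated levels of 12.2, 10.5 and 12.7 all lay above its untreated levels of 9.79, 9.77 and 9.24. It was called higher with DESeq2 (0.57), with TMM (0.37), with termini outside the NCR as library size (0.30), in unique sites at equal depth (0.22) and without replicate 2 (0.39), at adjusted p = 2.19e-06 to 0.00627 in these DESeq2 and edgeR fits. Without replicate 1, the rises in MT-ND2, MT-ND6, MT-ND4L, MT-ND4, MT-ATP8, MT-ATP6, MT-CO2 and MT-CO1 were not called (edgeR adjusted p = 0.0524 to 0.396), and without replicate 3 the last 6 of these were not called (0.0969 to 0.273), with no change of sign. In unique sites at equal depth MT-ATP8 (0.27) and MT-ND4L (0.16) were not called on the H strand.

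Of the 22 tRNA genes, 19 were higher on the H strand, with a median log2 change of 1.12 over all 22. MT-TT, the gene of the threonine tRNA, went from 5.54, 3.62 and 2.65 to 14.3, 13.8 and 17.1 termini per base per 1000000 (log2 change 2.05 ± 0.23, edgeR adjusted p = 7.97e-14). MT-TP, the proline tRNA gene beside it, went from 5.37, 2.70 and 3.15 to 12.7, 11.5 and 17.3 (2.00 ± 0.23, adjusted p = 1.26e-13). Treated and untreated levels were well apart in both genes. MT-TF (0.06), MT-TV (0.12) and MT-TM (0.29), the genes of the phenylalanine, valine and methionine tRNAs, were not called on the H strand. MT-TM had 11.80, 11.95 and 11.01 without P1 and 14.8, 13.3 and 14.6 with P1, which did not overlap, and it was called higher with DESeq2 (0.58), with TMM (0.38) and in unique sites at equal depth (0.45; adjusted p = 0.00195, 0.0321 and 0.0398, the last 2 by edgeR). MT-TF and MT-TV flank MT-RNR1, and MT-TF had 9.79, 10.9 and 11.4 without P1 and 11.2, 11.1 and 11.5 with P1, which overlapped. On the L strand the largest falls among tRNA genes were in MT-TI, with −1.04 ± 0.20, and MT-TA, with −0.99 ± 0.20. In unique sites at equal depth they had −0.56 and −0.57 and were not called (edgeR adjusted p = 0.169 and 0.0751). With nuclear termini as library size they had −0.22 and −0.20, and −1.05 and −0.85 on that scale without replicate 1, none of them called.

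In the NCR before MT-TF the H-strand level rose from 12.4, 11.6 and 11.7 to 23.1, 21.96 and 32.0 termini per base per 1000000, a log2 change of 1.09 ± 0.15 (edgeR adjusted p = 2.66e-10). In the NCR after MT-TP the levels were far higher, at 1181, 1199 and 1249 without P1 and 1157, 1280 and 1173 with P1, and the log2 change was −0.01 ± 0.08. This last value took either sign across the alternatives, and it was called higher with DESeq2 (0.26, adjusted p = 0.0295), in unique sites at equal depth (0.45, edgeR adjusted p = 0.000127) and with nuclear termini without replicate 1 (0.14, edgeR adjusted p = 0.0389).

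The H/L ratio within each sample removes the library size. The ratio was higher after P1 in 36 of the 39 units and lower in 0 (0.0%), with a median log2 change of 1.49 (edgeR quasi-likelihood test of the strand-by-treatment term, adjusted p under 0.05), and without any one replicate 35 to 37 units were higher. In unique sites at equal depth, 32 of 36 units were higher, with a smaller median of 0.80. All 22 tRNA genes and all 13 protein-coding genes were higher, with medians of 2.00 and 1.30. The units without a call were MT-RNR1, MT-RNR2 and the NCR after MT-TP.

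MT-TT had H/L ratios of 0.837, 0.473 and 0.443 without P1 and 2.73, 3.89 and 3.91 with P1, so L-strand termini outnumbered H-strand termini in each untreated sample and the reverse held in each treated one. Its log2 change was 2.77 ± 0.25 (edgeR adjusted p = 2.74e-17). MT-TA, the alanine tRNA gene in the cluster with the L-strand origin, had ratios of 2.02, 2.15 and 1.93 without P1 and 16.2, 9.73 and 16.9 with P1, a log2 change of 2.73 ± 0.27. Next came MT-TG (2.62), MT-TR (2.60) and MT-TQ (2.58), the glycine, arginine and glutamine tRNA genes. The SEs of these log2 changes, between 0.16 and 0.27, exceed the steps between neighbours in this order. At the other end MT-TF rose by 0.80, with ratios of 2.69, 2.43 and 3.16 against 4.05, 4.78 and 5.32, and MT-TS1 and MT-TV rose by 1.02 each.

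Among protein-coding genes the log2 change of the H/L ratio was largest in MT-CYB (1.69 ± 0.11), where the ratios went from 0.979, 0.935 and 1.04 to 2.71, 3.105 and 3.76. MT-ND1 followed with 1.66 ± 0.12, then MT-ND3 (1.49), MT-ND2 (1.47), MT-ND5 (1.45), MT-ND6 (1.33) and MT-ND4L (1.30). Changes of 1.15 in MT-ATP8, 1.14 in MT-ATP6, 1.12 in MT-CO2, 1.07 in MT-CO3 and 1.02 in MT-ND4 came below these. MT-CO1, the gene of the catalytic subunit of cytochrome c oxidase, had the smallest change of the 13, at 0.80 ± 0.11, with ratios of 0.672, 0.724 and 0.781 against 1.11, 1.20 and 1.51. Its groups did not overlap, and neither did those of the other 12.

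In MT-RNR1 the ratios were 1.18, 1.01 and 1.10 without P1 and 1.16, 1.29 and 1.08 with P1. These ranges overlapped, and the log2 change was 0.10 ± 0.13 (edgeR adjusted p = 0.468), with −0.031 without replicate 2. MT-RNR2 had ratios of 0.943, 0.712 and 0.783 against 0.914, 0.936 and 0.909, again with overlap, and a log2 change of 0.19 ± 0.11 (adjusted p = 0.0994 in the same edgeR fit). Within the NCR the part before MT-TF went from 1.08, 1.22 and 1.36 to 3.09, 3.73 and 4.80, a log2 change of 1.65 ± 0.13. The part after MT-TP had 105, 136 and 153 against 145, 205 and 165, with a log2 change of 0.38 ± 0.23 (edgeR adjusted p = 0.0994).

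**Figure D2:**
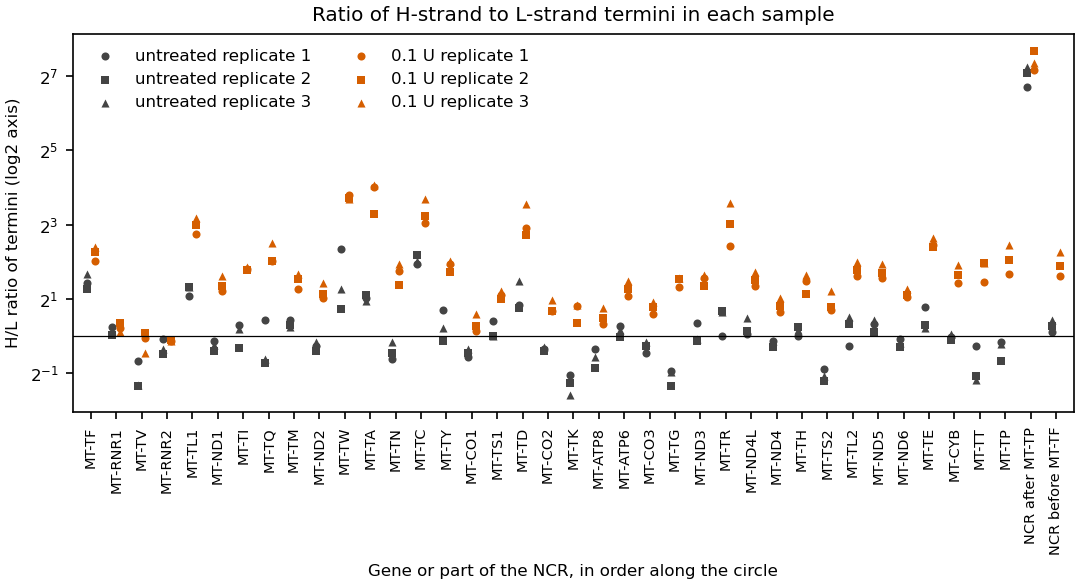
Ratio of H-strand to L-strand termini in each of the 6 samples for 37 mitochondrial genes and both parts of the NCR, in order along the circle from MT-TF, on a log2 axis. Each point is 1 sample, untreated in grey and 0.1 U in orange; the groups are apart in 36 units and overlap in MT-RNR1, MT-RNR2 and the NCR after MT-TP.

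At single positions, 4708 position and strand pairs had at least 10 termini in at least 3 of the samples. On the H strand 1063 of 2855 were higher after P1 (37.2%) and 26 were lower (0.911%). On the L strand 317 of 1853 were lower (17.1%) and 1 was higher (0.054%; edgeR, adjusted p under 0.05 over all 4708). Over both strands 1407 were called (29.9%), against 2253 without replicate 1, 642 without replicate 2 and 293 without replicate 3. DESeq2 called 540 higher and 12 lower. A position tested only because it was frequent in one group had to differ, so these shares describe the tested positions. Higher H-strand positions made up 127 of 219 in tRNA genes (58.0%), 236 of 406 in the NCR (58.1%), 690 of 1994 in protein-coding genes (34.6%) and 0 of 212 in rRNA genes, where 18 were lower. Within the protein-coding genes the share was 51.0% in MT-CYB, 47.7% in MT-ND5 and 46.6% in MT-ND1, against 19.8% in MT-ND4 and 18.0% in MT-CO1.

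Several H-strand positions had hardly any terminus without P1. Position 26 in the NCR had 0, 2 and 0 termini in the untreated libraries and 53, 74 and 161 in the treated ones. In termini per 1000000, summed over replicates, its ratio was 94.4 (95% interval 25.9 to 784). Intervals here cover the counting error of the pooled termini only, not the spread between replicates. The reads carried no molecular identifiers, so copies of 1 molecule could not be told apart and the intervals may be too narrow. Position 166 had 0, 1 and 0 against 19, 32 and 91, a ratio of 93.1 (16.4 to 3704). Position 16529 went from 1, 4 and 0 to 91, 87 and 218 termini, a ratio of 51.9 (22.1 to 161). Position 16288 went from 3, 4 and 1 to 107, 131 and 305, a ratio of 44.5 (22.4 to 104). Among the 5 largest rises the only position outside the NCR was 5937 in MT-CO1, with 1, 0 and 0 against 24, 18 and 38 (52.5; 9.15 to 2098). These 5 positions met the minimum count only through the treated libraries, so they had to differ, and their values are given as a description.

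The largest H-strand falls were at positions 1486, 1489 and 879 in MT-RNR1, 3224 in MT-RNR2 and 7379 in MT-CO1, with log2 changes between −1.71 and −1.39. Position 1486 had 12, 18 and 13 termini without P1 and 2, 10 and 10 with P1, and its ratio in the same unit was 0.336 (0.191 to 0.573). On the L strand the largest falls were at 4665 in MT-ND2, 12388, 12961 and 14076 in MT-ND5, and 5841 in MT-TY, with ratios between 0.270 and 0.345. The single L-strand rise was at position 10334 in MT-ND3, with 2, 9 and 10 termini against 24, 25 and 25. Position 14116 in MT-ND5, which had the most untreated H-strand termini outside the NCR, held 549, 1458 and 2265 termini without P1 and 1773, 2187 and 3681 with P1, and its log2 change of 0.16 ± 0.17 was not called. Each of the 5 H-strand falls, 4 of the 5 L-strand falls and the L-strand rise lost the edgeR call without at least 1 replicate, and only the fall at 14076 kept it in all such fits.

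**Figure D3:**
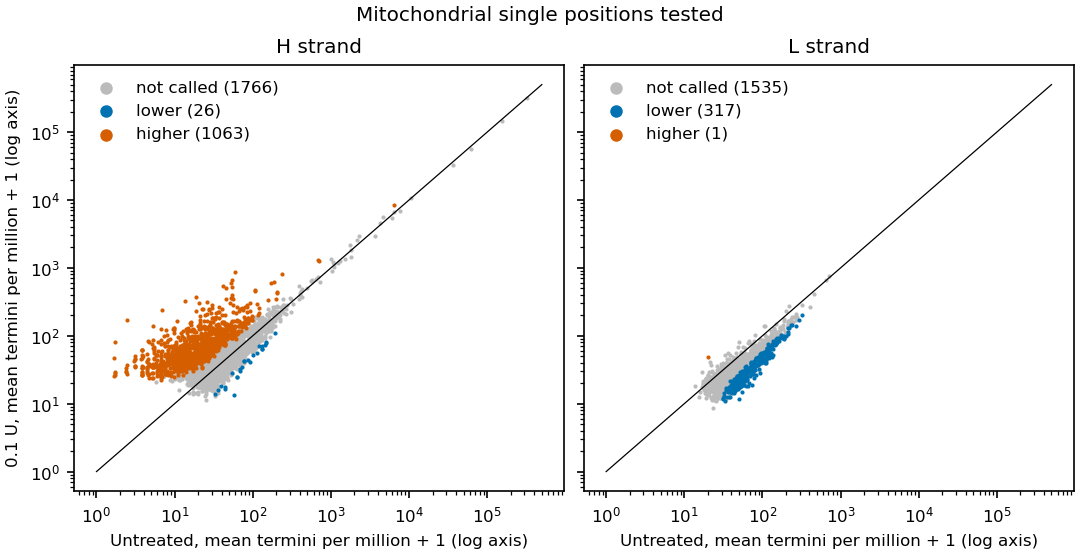
Mean termini per 1000000 mitochondrial termini, plus 1, at each tested position of the H strand (left) and the L strand (right), with untreated samples on the x axis and 0.1 U on the y axis, both on log axes. Each point is 1 position; on the H strand 1063 higher positions lie above the line of equal means and 26 below, and on the L strand 317 lie below it and 1 above.

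The nuclear genome gave a different picture. Densities of unique sites in gene features did not separate the groups at equal depth (2156151 sites per sample). All unique sites were counted here, including termini present without the enzyme. The paper measured its enrichments at genomic elements only in sites inside called regions, which it reports as a small fraction of all sites. Coding exons had 2.02, 1.90 and 1.86 times the mean density of the genome without P1 and 1.86, 1.88 and 1.87 times with P1 (exact p = 0.4). Promoters, taken as the 1 kb before the start of a protein-coding gene, had 1.73, 1.83 and 1.85 against 1.83, 1.81 and 1.75 (exact p = 1). For the 5′ UTR the values were 1.99, 2.04 and 2.06 against 2.05, 2.05 and 1.95. Introns lay between 1.07 and 1.09 and intergenic sequence between 0.889 and 0.907 in all 6 samples. The groups overlapped in each feature. The geometric mean of the treated over untreated ratios within replicate numbers lay between 0.973 and 1.01 in each feature. Single ratios ran from 0.921 in coding exons to 1.06 in promoters, both in replicate 1.

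Strand was also measured within genes. Broken template strands over broken non-template strands gave 0.952, 0.971 and 0.976 in gene bodies without P1 and 0.969, 0.966 and 0.966 with P1 (exact p = 1). In coding exons the ratio was 1.09, 1.12 and 1.12 against 1.09, 1.08 and 1.07 (exact p = 0.2). In the 5′ UTR it was 1.100, 1.101 and 1.102 without P1 and 1.099, 1.056 and 1.051 with P1. These did not overlap (exact p = 0.1), but treated replicate 1 lay only just below the lowest untreated sample. Around the starts of protein-coding genes, the template strand peaked in the window centred 50 bp after the start, at 2.65 ± 0.187 (SD, n = 3) times the genome density without P1 and 2.64 ± 0.0950 with P1. The non-template strand peaked in the window centred 150 bp before the start, at 2.34 ± 0.189 and 2.39 ± 0.0672. Of 40 windows per strand, 4 on each strand did not overlap between groups. The geometric means of the ratios within replicate numbers lay between 0.937 and 1.05 over all windows, and single ratios between 0.882 and 1.15.

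**Figure D4:**
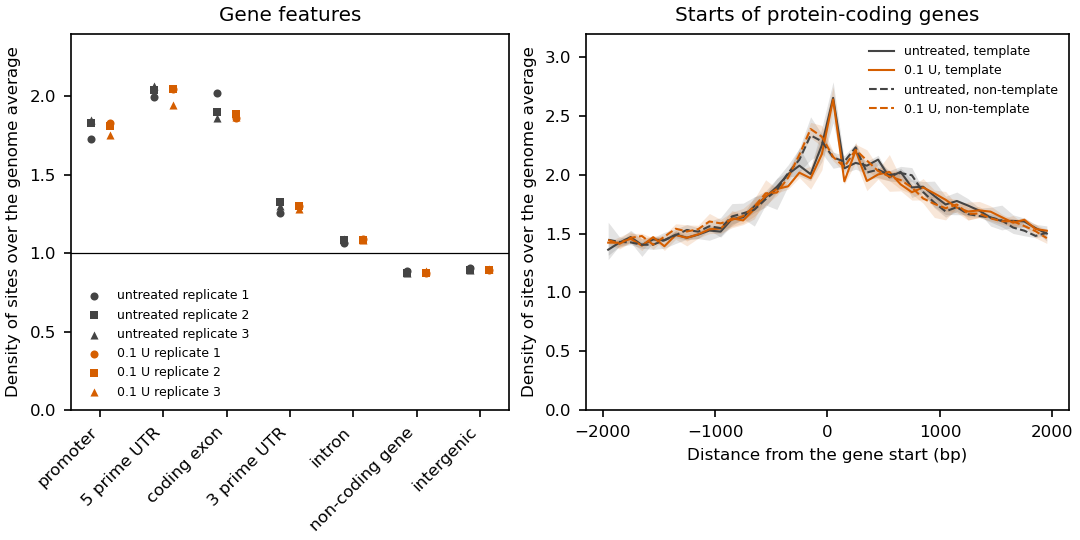
Density of unique nuclear sites relative to the genome average, by gene feature in each sample (left, points) and against the distance from the start of protein-coding genes in bp (right, lines are group means and shading the range of 3 samples, solid for the template strand and dashed for the non-template strand). Untreated samples are grey and 0.1 U orange; the groups overlap in every feature and in 36 of 40 windows per strand.

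Clustering and base composition were compared next. Of the sites at equal depth, 5.41%, 10.4% and 9.75% had another site within 10 bp on the same strand without P1, and 7.82%, 9.61% and 8.41% with P1 (exact p = 1). Untreated replicate 1 was again the lowest. On the opposite strand the share was 1.73% to 1.80% in all samples. The last base before the nuclear break was C at 45.3% to 47.4% of sites and G at 30.5% to 31.9% over the 6 samples. Of the shares of each base beside the nuclear termini, 1 of 84 (1.19%) did not overlap between groups, and the largest difference of means was 0.895 percentage points. Site density rose with the GC content of 1-kb windows in all samples, from 0.260 to 0.294 times the genome density in the lowest decile to 2.15 to 2.33 times in the highest, and the groups overlapped in each decile.

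Few nuclear features were called. Of 2879 bins of 1 Mb, 2 were higher (0.0695%) and 0 lower (0.0%; edgeR quasi-likelihood test, adjusted p under 0.05), with 25 higher and 40 lower at an unadjusted p under 0.05. They were chr7:140000001-141000000, with 2691, 1525 and 1613 sites without P1 and 2053, 1800 and 3043 with P1, and chrX:74000001-75000000, with 715, 358 and 366 against 495, 439 and 882. Only treated replicate 3 was high in each. DESeq2 called 0 bins, and without replicate 3 edgeR called 0 and the log2 changes of 0.27 and 0.36 became 0.06 and 0.01. The 3 lowest p among bins with fewer sites, none called, belonged to chr4:49000001-50000000, chr3:144000001-145000000 and chr15:20000001-21000000, with log2 changes between −0.23 and −0.14 (edgeR adjusted p = 0.840 to 0.999).

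Of 16166 gene bodies, BRAF alone was called higher (0.00619%) and 0 lower (0.0%), while 318 and 365 had an unadjusted edgeR p under 0.05 in each direction. BRAF encodes a kinase of the MAPK pathway and lies in the called bin of chromosome 7. It had 335, 206 and 226 sites without P1 and 281, 253 and 1375 with P1, a log2 change of 1.04 ± 0.12 (edgeR adjusted p = 9.54e-10). Without replicate 3 the change was 0.14 ± 0.12 and was not called, and without replicate 2 it was 1.37 ± 0.27 and was not called either (edgeR adjusted p = 0.996). DESeq2 called 0 gene bodies. The lowest p among bodies with fewer sites belonged to ENSG00000257062 (−0.74), TTC34 (−0.36) and PHYH (−0.74), none of them called (edgeR adjusted p = 0.984), and TTC34 turned to 0.16 without replicate 1. The extra sites of treated replicate 3 lay in coding exons. The coding exons of BRAF held 9, 4 and 3 sites without P1 and 6, 2 and 1076 with P1. Of its 20 coding intervals, 17 had over 5 sites in this sample, up to 199 in an interval, whereas no other sample had over 3 in any interval. The sites fell on both strands, 477 on the template strand and 599 on the non-template strand. BRAFP1, the processed pseudogene of BRAF in the called bin of the X chromosome, held 4, 0 and 2 sites without P1 and 2, 1 and 457 with P1. The rise was thus confined to 1 of the 3 treated samples, and what produced it was not tested. With BRAF and BRAFP1 left out, in a setting chosen after seeing the data, the densities of the gene features still overlapped between the groups.

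**Figure D5:**
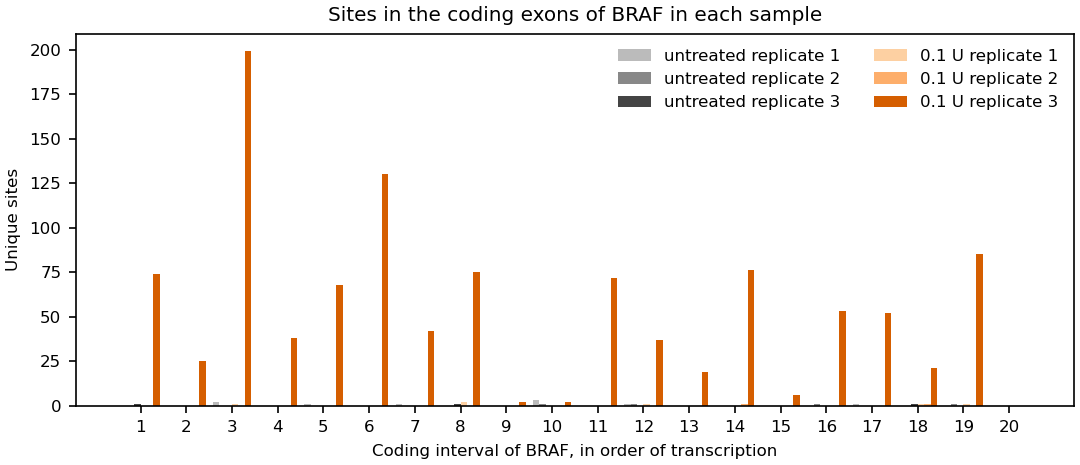
Unique sites in each of the 20 coding intervals of BRAF, in order of transcription, with a bar per sample. Sites are seen at up to 199 per interval in 0.1 U replicate 3 and at no more than 3 in the other 5 samples.

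Promoters were tested in windows of 1 kb on either side of the start, and 209 had enough sites. None was higher (0 of 209, 0.0%) and 1 was lower (0.478%) by edgeR, with 3 in each direction at an unadjusted p under 0.05. The lower one was PARP2, which encodes a DNA-damage responsive poly(ADP-ribose) polymerase. Its window at chr14:20810774-20812774 held 34, 22 and 37 sites without P1 and 16, 10 and 8 with P1, so all treated samples were below all untreated ones (log2 change −1.47 ± 0.36, edgeR adjusted p = 0.0108). The call was lost without any one replicate (adjusted p = 0.0855 to 0.996), with DESeq2 (0.974), with total sites as the scale (0.0835), with all termini (0.891) and with 500 bp on either side (0.186). INVS, CD46 and ERP44 had the lowest p among promoters with more sites and were not called (edgeR adjusted p = 0.846 each). A promoter could have enough sites through 1 group alone, and the median untreated count of the tested promoters was 11.3 sites. INVS, for example, had 5, 7 and 7 sites without P1 and 12, 12 and 15 with P1. Changes at the tested promoters, PARP2 and those in the gene lists below included, are therefore given as a description. Of simulated 2-fold changes at promoters edgeR recovered 29.3% and DESeq2 0.0%, so most changes of that size would be missed. In the same simulation, with 264 promoters tested, edgeR also called 1 unchanged promoter and DESeq2 called 0.

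The sites at PARP2 were concentrated. The 200 bases of the promoter window with the most sites over all 6 samples lay at chr14:20811331-20811530 (GRCh37). They overlap a long non-coding RNA gene annotated as ENSG00000259001. The minus strand of the files held here 27, 20 and 31 sites without P1 and 14, 8 and 6 with P1. The plus strand held 1, 0 and 2 against 2, 0 and 0. RefSeq lists RPPH1, the gene of the RNase P RNA, as a neighbour of PARP2, and whether the sites lie in it was not examined. The plus strand of the reference, on which these breaks lay, is shown because the sites crowd into it, with capitals at the 62 bases where an untreated sample had a site on the minus strand of the files.
PARP2 window: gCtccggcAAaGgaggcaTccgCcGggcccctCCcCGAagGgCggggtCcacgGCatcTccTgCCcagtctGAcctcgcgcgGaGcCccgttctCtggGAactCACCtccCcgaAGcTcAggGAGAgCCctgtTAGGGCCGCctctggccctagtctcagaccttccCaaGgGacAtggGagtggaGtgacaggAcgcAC

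None of the gene lists held a called member, against the same backgrounds of 0.00619% for bodies and 0.478% for promoters. Replication-dependent histone genes, which are short and transcribed in S phase, had 11 of 66 bodies tested, with a median log2 change of 0.07, and 4 promoters tested, with −0.52. Cytosolic ribosomal protein genes had 48 of 84 bodies tested (median 0.06) and 1 promoter (0.24). Of the globin genes, 5 of 10 bodies were tested (−0.01), and of the erythroid factors 8 of 9 (0.05), with no promoter tested in either. HBB, the beta-globin gene, was not among the tested bodies and held 3, 3 and 2 sites without P1 and 7, 72 and 5 with P1, so that treated replicate 2 stood apart, and what produced this was not tested. Replication licensing genes had 16 of 17 bodies tested (−0.06) and 1 promoter (0.29). Very long genes at fragile sites had 12 of 12 bodies tested (−0.01) and no promoter. Over all bodies tested the median was −0.002, and over all promoters −0.02.

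The deposited lists of regions enriched in treated over untreated sites held 9661, 8640 and 7577 regions on chromosomes 1 to 22 and X in replicates 1 to 3, with median widths of 50, 40 and 40 bp. Because the counts of a replicate chose its list, each list was examined in the other 2 replicates. Treated over untreated densities for the list of replicate 1 were 0.977 in replicate 2 and 0.945 in replicate 3. The list of replicate 2 had 1.22 in replicate 1 and 1.03 in replicate 3. The list of replicate 3 had 1.13 in replicate 1 and 1.05 in replicate 2. The largest values, 1.22 and 1.13, were both in replicate 1, whose untreated sample had the most sites and the lowest same-strand clustering. With replicate 1 left out as list and as sample, the values were 1.03 and 1.05. Counts here were scaled to the sites of each sample and not thinned to equal depth. By gene feature, each value was above 1 in the 3′ UTR (1.02 to 1.66, from 45 to 124 untreated sites) and in coding exons (1.05 to 1.28, from 96 to 161). The other features lay on both sides of 1, with 0.923 to 1.09 in intergenic regions. BRAF and BRAFP1 were not left out of these counts. Treated replicate 3, with its many BRAF sites, enters the coding-exon values 1.15 and 1.28 for the lists of replicates 1 and 2. None of these values was tested. Each list shared 1.96% to 3.02% of its regions with another list. The share for regions this short placed at random was not computed, so these shares do not say how far the lists agree beyond it. In the region list of replicate 3, 26 regions lay in BRAF or BRAFP1, against 1 and 2 in the other lists.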

How the data were processed

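The samples were grouped by their titles. Per the paper's methods and the submitters' processing notes, the authors aligned trimmed reads with BWA 0.7.12 to hg19 and to its mitochondrial genome, dropped nuclear termini with over 40% T in the 20 bases upstream, and deposited the count of termini per position and strand. The deposited RPM values were not used. Of the regions the authors called with SICER 1.1, only coordinates were used; their counts, p-values, FDR and folds are the authors' own comparison. The strand of the files was taken as opposite to the broken strand, with plus as H. Genes came from GENCODE 44 mapped to GRCh37. Its mitochondrial genome has 16569 bases and the files reach position 16571, so gene positions can be off by up to 2 bases.

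Counts were fitted with edgeR 4.0.16 (quasi-likelihood, replicate number as a block, Benjamini-Hochberg over all features), with DESeq2 1.42.0 as an alternative. Mitochondrial library sizes were total mitochondrial termini. Nuclear fits used unique sites, TMM and filterByExpr. Single values were compared by exact permutation tests. Scripts were tested on simulated data. Of simulated 2-fold changes, edgeR recovered 100% in nuclear bins, 81.0% in gene bodies and 29.3% in promoters, and DESeq2 100%, 48.0% and 0.0%. Unchanged features called by edgeR were 7 bins, 6 gene bodies and 1 promoter, against 0 of each by DESeq2. At mitochondrial single positions edgeR recovered 6.5% and DESeq2 3.5% of 2-fold changes, and 64.5% and 64.0% of 8-fold changes. Members and lists were chosen with earlier results of these data known. Named were the mitochondrial rRNA and protein-coding genes, the parts of the NCR, 2 tRNA genes and 5 positions per strand with the largest change each way, and called nuclear features or, without calls, the 3 with the lowest p. Other names were chosen after their values were seen.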

Additional observations from a re-analysis of the deposited data

How the results depend on the processing

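The H/L ratio by gene was the most stable result, with 32 to 37 units higher and 0 lower under all 7 alternatives. Strand levels depended on the scale. The edgeR calls among 100-bp bins went from 284 to 0 with nuclear termini as library size, 61 in unique sites at equal depth, 119 of 134 with 250-bp bins and 12 with nuclear termini and without replicate 1. Calls among gene levels went from 73 to 0, 48 and 12 under the same scales. With nuclear termini, L-strand levels turned positive in log2 change for MT-RNR1 (0.060), MT-RNR2 (0.10), MT-CO1 (0.29), MT-CO2 (0.056), MT-ATP8 (0.12), MT-ATP6 (0.11), MT-CO3 (0.034), MT-ND3 (0.16), MT-ND4L (0.0019), MT-ND4 (0.074), MT-ND5 (0.027), MT-ND6 (0.094), MT-CYB (0.0058) and the NCR before MT-TF (0.26) and after MT-TP (0.42), as did the H-strand levels of MT-RNR1 (0.16) and MT-RNR2 (0.30). So did the L-strand bins that start at 201 (0.42), 6901 (0.37) and 16101 (0.42) and the H-strand bins at 1101 (0.024) and 1501 (0.13). With nuclear termini and without replicate 1 each of these was negative again, between −0.75 and −0.22, so the positive signs rested on replicate 1. The H strand of the NCR after MT-TP took values of −0.061 to 0.033 without a replicate, 0.26 with DESeq2, 0.067 with TMM, 0.0016 with termini outside the NCR as library size, 0.80 with nuclear termini, 0.45 in unique sites and 0.14 with nuclear termini and without replicate 1. In unique sites MT-TF had −6.66e-06 and MT-TV −0.11 on the H strand. MT-RNR1 had an H/L change of −0.031 to 0.16 without a replicate, negative without replicate 2.

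Calls at single positions ranged from 293 to 2253 without a replicate, and DESeq2 gave 552. For nuclear bins the 2 calls became 0 with DESeq2, 0 to 2 without a replicate and 6 with all termini. For gene bodies the 1 call became 0 with DESeq2, 0 to 1 without a replicate, 2 without a filter and 6 with all termini. For promoters it became 0 with DESeq2, total sites, all termini or 500 bp and in each fit without a replicate, and 3 without a filter. Without a replicate the bin at chr4:49000001-50000000 had −0.22 to 0.021 and TTC34 −0.58 to 0.16, both highest without replicate 1. Nuclear ratios of treated over untreated values near 1 crossed it. Without a replicate the ranges were 0.968 to 1.02 for promoter density, 0.973 to 1.02 for the 5′ UTR, 0.982 to 1.01 for the 3′ UTR, 0.998 to 1.01 for introns, 0.997 to 1.01 for gene bodies, 0.990 to 1.003 for intergenic sequence and 0.989 to 1.01 for non-coding genes. For the strand ratio they were 0.992 to 1.01 in gene bodies, 0.977 to 1.01 in the 3′ UTR and 0.995 to 1.01 in introns. Spacing had 0.892 to 1.16 on the same strand and 0.988 to 1.01 on the opposite one, and the terminal C and G had 0.992 to 1.01 and 0.993 to 1.01. Coding exons had 1.03 in sites with at least 2 termini. With all termini the strand ratio was 0.9995 in gene bodies and 1.001 in the 3′ UTR, and terminal C and G had 0.9994 and 0.998. With all sites of each sample the 3′ UTR had a strand ratio of 1.0005 and opposite-strand spacing 0.994, and with 50 bp this spacing had 0.9993. The causes of these changes were not tested, except that fewer samples or other features enter by construction. The alternative with only regions of the lowest FDR was not run, because that column is part of the authors' comparison.

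The replicate numbers were checked as pairs. Same-numbered samples correlated at −0.139 to 0.179 in their deviations from the group means, not above 0.1 in every pair. With 3 samples per group, these values cannot decide whether same-numbered samples share more than a number. With no replicate block the calls were 286 bins, 73 gene levels, 1747 positions and 36 H/L units in the mitochondrial genome, and 0 bins, 1 gene body and 1 promoter in the nuclear genome, and the terminal C had a ratio of 0.99996. Depth limited the test of promoters, since 209 of 20098 protein-coding genes had enough sites at the start.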

Other observations

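Loci with many transcribed or processed copies were counted as well. Exons of cytosolic ribosomal protein genes held 518, 450 and 389 sites without P1 and 431, 396 and 608 with 0.1 U, which is 2.03, 3.16 and 2.62 against 2.36, 2.41 and 3.45 times the genome density. Treated replicate 3 was the highest, as it was for the coding exons of BRAF. Nuclear copies of mitochondrial genes, in 373 annotated intervals, had 1.02, 1.55 and 1.41 times the genome density without P1 and 1.49, 1.47 and 1.66 times with P1 (exact p = 0.4), and untreated replicate 1, which had the fewest mitochondrial termini, was the lowest. CDKN2B and MTAP, which lie beside CDKN2A, held 0 to 1 and 0 to 11 sites per sample.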
